A study of Homo sapiens with 8 samples.

Results

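The 28 genes described here make, move and control cholesterol in human cells. They were taken by symbol from a fixed list of enzymes, regulators and transport proteins, and all 28 are among the 15982 genes of the count table. The cells were 143BTK-, an established human osteosarcoma line without thymidine kinase. The medium of all 8 cultures held no glucose but 10 mM galactose, 5% dialysed serum and uridine. In the miR-101 group 4 cultures received 80 pmol of a synthetic hsa-miR-101-3p mimic, and in the control group 4 received the same amount of a scrambled negative control mimic. Both were given by lipid transfection at the start and again at 48 h. The first mix was removed at 24 h and the second at 96 h, and cells were harvested at 120 h. A mimic given this way reaches levels set by the transfection, so the comparison is of added miRNA and not of the cell's own. The labels describe 4 independent transfection experiments and number the libraries 1 to 4 in each group. Same-numbered libraries are called a culture below, though the labels do not say that a shared number pairs them.

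Cholesterol is built from acetyl-CoA through mevalonate, farnesyl diphosphate and squalene to lanosterol, which a chain of ring-modifying enzymes turns into cholesterol. The genes for these enzymes are switched on together by SREBP transcription factors. When membranes hold little sterol, SCAP escorts SREBP from the endoplasmic reticulum for activation by cleavage, and when sterol is plentiful the INSIG proteins hold the complex back. NPC1 and NPC2 release cholesterol taken up with lipoproteins from lysosomes, STARD4 carries sterol between membranes, SOAT1 stores it as ester, and ABCA1 exports it to lipoproteins outside the cell under the control of LXR receptors.

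The transfected miRNA pairs with messenger RNAs mainly through its seed, bases 2 to 8. The mature sequence (RefSeq, GRCh38.p14; the locus used is MIR101-2, chr9:4850345-4850365, plus strand) is shown first with the seed in capitals. Below it are windows of 28 bases from the longest annotated 3' UTRs (GENCODE 29, GRCh38) of members with a match. For comparison the strongest matches of EZH2 and ICMT follow, 2 genes that fell. ICMT was picked because it was called lower in these same data. Capitals mark the letters that match the seed: GTACTGTA for an 8mer, GTACTGT for a 7mer-m8, TACTGTA for a 7mer-A1, all on the sense strand and with the longer match counted once.
hsa-miR-101-3p: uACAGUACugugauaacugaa
ABCA1, 7mer-A1, chr9:104784181-104784208, minus strand: gtaaactggaTACTGTActgatactatt
ABCA1, 7mer-A1, chr9:104781611-104781638, minus strand: aacctcacacTACTGTAtttcattatct
ABCA1, 7mer-A1, chr9:104781375-104781402, minus strand: aataatgtaaTACTGTAgaaatattgct
STARD4, 7mer-A1, chr5:111497416-111497443, minus strand: ggccagtggaTACTGTAttgaatagcac
LSS, 7mer-A1, chr21:46190896-46190923, minus strand: tcttgattttTACTGTAggttcatttct
SOAT1, 7mer-A1, chr1:179355475-179355502, plus strand: tgtttctgaaTACTGTAtttgttggatt
SOAT1, 7mer-m8, chr1:179358251-179358278, plus strand: taaaacttctGTACTGTttttttcttaa
EZH2, 8mer, chr7:148807515-148807542, minus strand: aatttgcaaaGTACTGTAagaataattt
ICMT, 8mer, chr1:6223588-6223615, minus strand: aatgaaatctGTACTGTAtgaaagctac
Of the 28 members, 4 had a match in the longest 3' UTR, which is 14.3%, beside 23.9% of 12188 tested genes with such a UTR. None of the 28 held an 8mer, and only SOAT1 held a 7mer-m8. ABCA1 had 3 matches, the most among the members. Over all tested genes whose strongest match was an 8mer, the median log2 fold change of miR-101 over control was -0.26. It was -0.097 for a 7mer-m8, 0.0035 for a 7mer-A1 and -0.011 for genes with no match. These classes were not tested.

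Levels are given in CPM, counts scaled to a common library size. Library totals ran from 17603054 to 20160267 counts, and member counts from 94 to 30543. EZH2, a described target of miR-101, checks the transfection: it stood at 28.1 ± 2.09 CPM with the mimic and 45.7 ± 5.12 CPM with the control mimic (mean ± SD over 4 libraries per group) and was lower in 4 of 4 cultures (edgeR adjusted p = 0.00561). Of 22 cell type markers, 12 were in the table. The mesenchymal and osteoblast-lineage list (6 of 7 in the table, without COL1A2) summed to 1154 to 2486 CPM with the mimic and 1378 to 1947 CPM in the control. The epithelial list (3 of 6, with KRT8, KRT18 and EPCAM but not CDH1) summed to 331.6 to 640.5 and 264.1 to 386.6 CPM. The blood cell marker found (1 of 5) ran from 1.25 to 3.66 CPM and the endothelial markers (2 of 4) summed to 2.75 to 10.5 CPM over both groups. COL1A1, a collagen gene of bone-forming cells, ran from only 3.97 to 18.1 CPM. In these bulk samples fewer cells of a kind and less RNA per cell cannot be told apart. Cultures 1 and 2 lay close together: the SD over genes of the log2 difference was 0.14 (miR-101) and 0.15 (control) between them and 0.23 to 0.46 for the other pairs within a group. Over all genes the control library of culture 4 lay farthest from the other controls, with SDs of 0.40 to 0.46. It also stood apart for the genes described here, as given below.

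Transcripts of all 28 genes were measured in the control cells, at levels that differed widely between genes. Per kilobase of exon, HMGCS1, which makes HMG-CoA, led with 219.8 ± 72.9 CPM per kb (SD, n = 4). INSIG1, itself a target of SREBP, followed with 93.5 ± 34.5, SQLE, the epoxidase of squalene, with 82.4 ± 17.2 and ACAT2, the thiolase that opens the pathway, with 69.3 ± 18.9 CPM per kb. The lowest control library of HMGCS1 (115.3) lay below the highest of INSIG1 (117.7), so these ranges overlapped. The control ranges of INSIG1, SQLE, ACAT2, IDI1 and MSMO1 overlapped as well, so the ranges alone do not resolve their order. The control library of culture 4 was the lowest for each of these genes and for HMGCS1, which widened the ranges. Within each control library HMGCS1 was above INSIG1, SQLE above ACAT2 and ACAT2 above MSMO1. INSIG1 and SQLE changed places between libraries. The range of NPC2 (39.0 to 61.6) and those of some lower genes also reached into that group. The factors and their escort were much lower: SCAP stood at 6.89 ± 2.04, SREBF2 at 4.43 ± 0.641 and SREBF1 at 3.76 ± 0.663 CPM per kb. LSS, the cyclase that forms lanosterol, was lowest with 0.992 ± 0.318 CPM per kb, below every control library of the next gene, TM7SF2 (2.70 ± 0.812). CYP51A1 and TM7SF2 overlap other protein-coding genes on the same strand, and ACAT2, MVK, SREBF1, NPC1 and NPC2 overlap one on the other strand. With non-coding genes other than small RNAs included, 16 members overlap a gene on the other strand, among them LSS and HMGCS1. FDPS, CYP51A1 and HSD17B7 have named pseudogenes. The levels of all these are uncertain, since how shared reads were counted is not given in the sources used here.

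**Figure D1:**
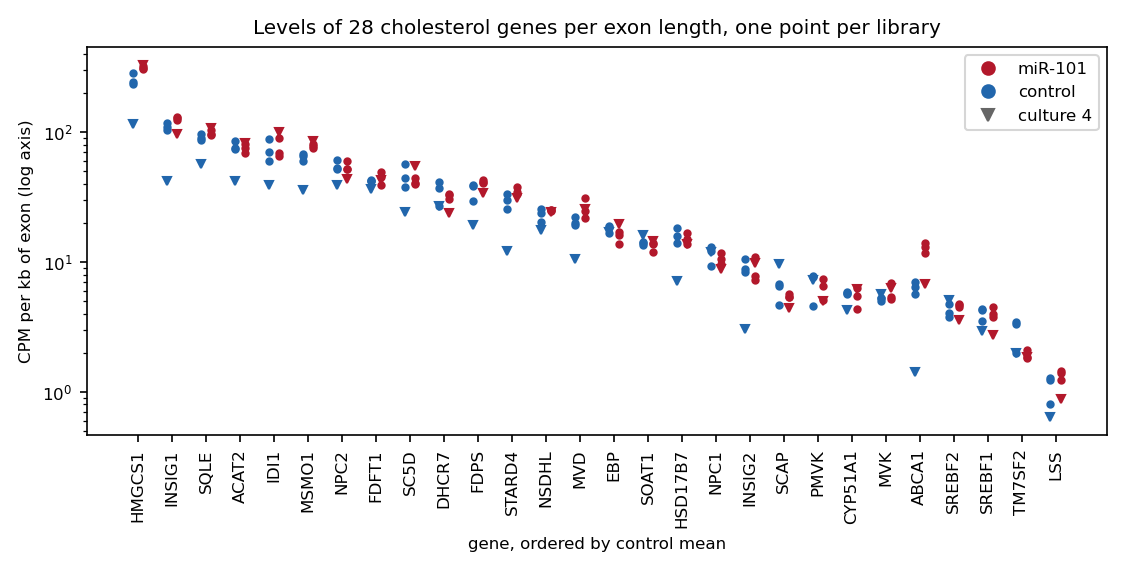
Level of each of the 28 genes in CPM per kb of exon on a log axis, 1 point per library, with control libraries in blue and miR-101 libraries in red and culture 4 as triangles; genes are ordered by control mean. HMGCS1 is highest and LSS lowest, and the blue triangle lies below the other blue points for 21 of the 28 genes.

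With the mimic, none of the 28 genes was called at an adjusted p under 0.05 by edgeR's quasi-likelihood test, in which 6.62% of all 15905 tested genes were called (3.3% higher and 3.32% lower). DESeq2 (10.7% of genes called) and limma-voom (6.66%) also called none of the 28. At an unadjusted p under 0.05 edgeR had 5 members, which is 17.9%, beside 22.3% of all genes: HMGCS1, MVD, MSMO1 and ABCA1 with higher and TM7SF2 with lower values. The groups did not overlap for 2 members, HMGCS1 and MSMO1 (7.14%, beside 15.1% of all genes). The ratio had 1 sign in all 4 cultures for 8 members (28.6%, beside 34.6% of all genes): above 1 for HMGCS1, FDPS, LSS, MSMO1, INSIG1, STARD4 and ABCA1, and below 1 for SOAT1. The log2 fold change of miR-101 over control was positive for 19 members and negative for 9, with a median of 0.15 over the members and -0.0051 over all genes. Without the control library of culture 4 the median was 0.018 with 14 positive, and 1 gene, ABCA1, was called (8.91% of all genes). With the replicate number as a block ABCA1 was likewise the 1 member called (10.5% of all genes).

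**Figure D2:**
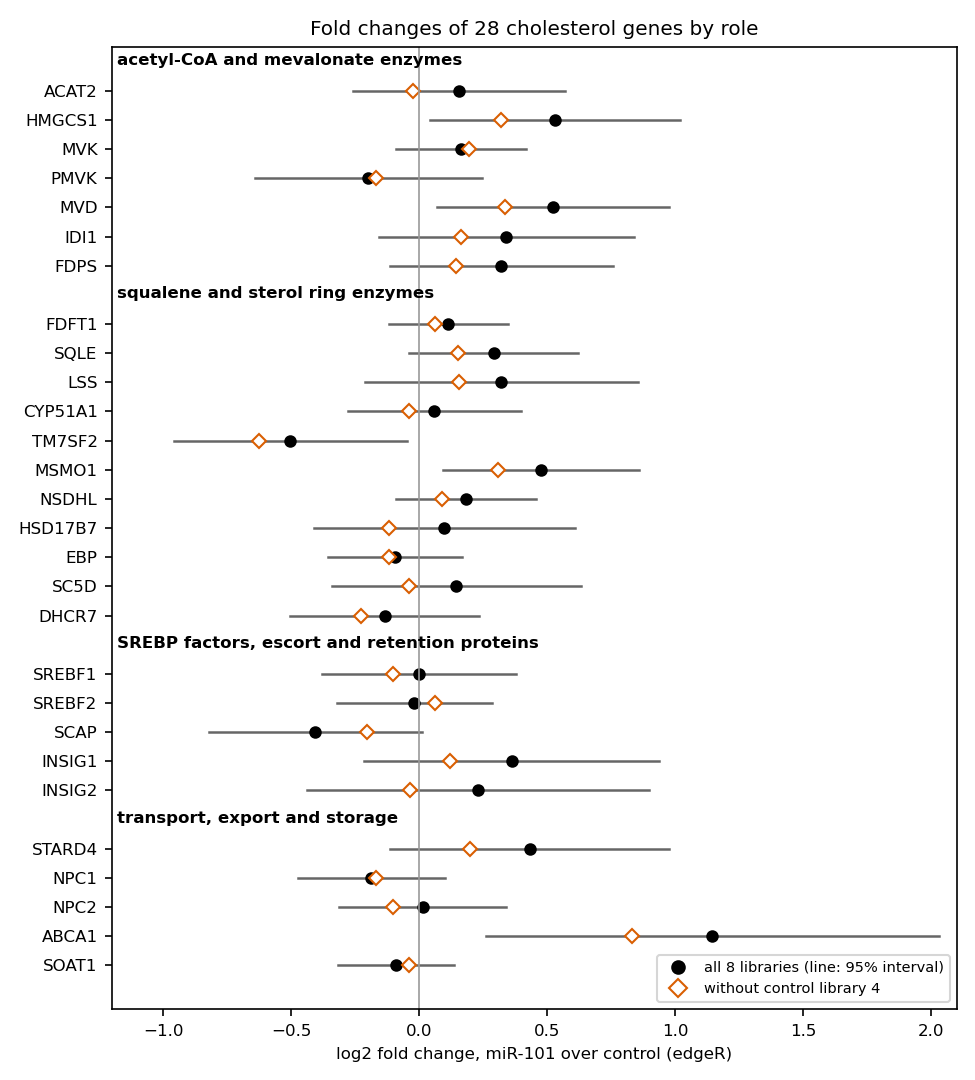
Log2 fold change of miR-101 over control for the 28 genes, grouped by role. Black points are edgeR estimates from all 8 libraries with 95% intervals, and open diamonds are estimates without the control library of culture 4. ABCA1 lies farthest to the right (1.14) and TM7SF2 farthest to the left (-0.50), and for most of the enzymes with a positive estimate the diamond lies nearer to 0.

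ABCA1 (chromosome 9, 104781002 to 104928237), the exporter of cholesterol, had the largest fold change of the members. It stood at 159.4, 148.0, 132.1 and 76.3 CPM in miR-101 cultures 1 to 4 and at 73.3, 80.1, 63.9 and 16.2 CPM in control cultures 1 to 4. The culture 4 library was the lowest in both groups, and the miR-101 library of culture 4 fell below the control library of culture 2, so the groups overlapped by 1 library. Within each culture the mimic library was higher, by log2 ratios of 1.12, 0.88, 1.05 and 2.23. The log2 fold change was 1.14 ± 0.401 (SE; 95% interval 0.26 to 2.03), a 2.21-fold difference in favour of the mimic, with an edgeR adjusted p of 0.121. With the replicate block, which compares libraries within a culture, it rose by 1.30 ± 0.206 (edgeR adjusted p = 0.00766), and without the control library of culture 4 by 0.83 (edgeR adjusted p = 0.0437). Leaving out any other library gave no call, with an edgeR adjusted p of up to 0.262. DESeq2 gave 0.149 and limma-voom 0.107 as adjusted p. The 3 seed matches shown above are in the 3' UTR of this gene, whose transcript was the more abundant with the mimic in every culture. AL359182.1 overlaps the locus on the other strand.

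The enzymes from acetyl-CoA to farnesyl diphosphate gave 6 positive and 1 negative log2 fold change among 7 genes, none of them called, with a median of 0.32. Without the control library of culture 4 the median was 0.16. HMGCS1 (chromosome 5, 43289395 to 43313512) stood at 1432, 1526, 1458 and 1559 CPM in miR-101 cultures 1 to 4 and at 1340, 1139, 1114 and 542.1 CPM in control cultures 1 to 4. All mimic libraries were above all control libraries, but culture 1 differed little and the control of culture 4 was far below the rest. Its log2 fold change was 0.53 ± 0.221 (95% interval 0.044 to 1.02; edgeR adjusted p = 0.186), and 0.32 without that library (0.088 by edgeR). MVD (chromosome 16, 88651935 to 88663161), the decarboxylase that yields isopentenyl diphosphate, stood at 103.2, 116.4, 146.8 and 121.5 CPM with the mimic and at 105.4, 94.0, 90.5 and 49.9 CPM in the control. The control library of culture 1 lay above the mimic library of the same culture, and the control of culture 4 was again lowest. The log2 fold change of MVD was 0.52 ± 0.205 (95% interval 0.07 to 0.98; edgeR adjusted p = 0.162), and 0.34 without the control library of culture 4. IDI1, the isomerase of isopentenyl diphosphate, had a log2 fold change of 0.34 ± 0.226, FDPS, the farnesyl diphosphate synthase, of 0.32 ± 0.198, and MVK, the mevalonate kinase, of 0.16 ± 0.115. ACAT2 had 0.15 ± 0.188. Without the control library of culture 4 these values were 0.16 for IDI1, 0.14 for FDPS, 0.19 for MVK and -0.0245 for ACAT2. The 1 negative value was that of PMVK, phosphomevalonate kinase, at -0.20 ± 0.201 and a mean of only 7.68 CPM with the mimic and 8.80 CPM in the control.

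Among 11 enzymes from squalene to cholesterol, 8 log2 fold changes were positive and 3 negative, with a median of 0.11 (-0.0385 without the control library of culture 4) and no call. MSMO1 (chromosome 4, 165327623 to 165343160), an oxidase that takes methyl groups off the sterol ring, stood at 225.3, 218.1, 234.5 and 246.9 CPM in miR-101 cultures 1 to 4 and at 190.7, 174.9, 195.0 and 104.5 CPM in control cultures 1 to 4. The groups did not overlap, and the ratio in cultures 1, 2 and 3 was steady, with log2 values of 0.24, 0.32 and 0.27, and 1.24 in culture 4. Over all libraries the log2 fold change was 0.48 ± 0.173 (95% interval 0.094 to 0.86; edgeR adjusted p = 0.134), and it was 0.31 without the control library of culture 4 (0.0667 by edgeR). TM7SF2 (chromosome 11, 65111845 to 65116384), a sterol reductase, had the opposite sign. It stood at 6.22, 6.35, 7.10 and 6.28 CPM with the mimic and at 11.4, 11.8, 6.83 and 6.79 CPM in the control. The mimic libraries lay close together, with that of culture 3 above the rest, while the controls of cultures 1 and 2 were higher than those of cultures 3 and 4, which lay within the range of the mimic libraries. Its log2 fold change was -0.50 ± 0.206 (95% interval -0.96 to -0.049, edgeR adjusted p = 0.178). Without the control library of culture 4 it was -0.63 (edgeR adjusted p = 0.0712). Reads of VPS51 on the same strand may be counted with TM7SF2.

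The remaining 9 of these enzymes had intervals that held 0. SQLE had a log2 fold change of 0.29 ± 0.149 and LSS of 0.32 ± 0.242. NSDHL, a sterol dehydrogenase, had 0.18 ± 0.124, SC5D, a desaturase, 0.14 ± 0.221, and FDFT1, the squalene synthase, 0.11 ± 0.106. HSD17B7, a ketoreductase, stood at 0.098 ± 0.231 and CYP51A1, the lanosterol demethylase, at 0.058 ± 0.153. EBP, a sterol isomerase, had -0.096 ± 0.118 and DHCR7, a reductase of the last step, -0.14 ± 0.167. Without the control library of culture 4 the signs of SC5D (-0.0388), HSD17B7 (-0.12) and CYP51A1 (-0.0385) turned. The same fit gave 0.15 for SQLE, 0.15 for LSS, 0.090 for NSDHL and 0.060 for FDFT1, all nearer to 0. It gave -0.12 for EBP and -0.23 for DHCR7, both farther from 0. For FDFT1 the 95% interval ran from -0.12 to 0.35 and for LSS from -0.21 to 0.85, so how tightly a difference is bounded varied between enzymes.

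**Figure D3:**
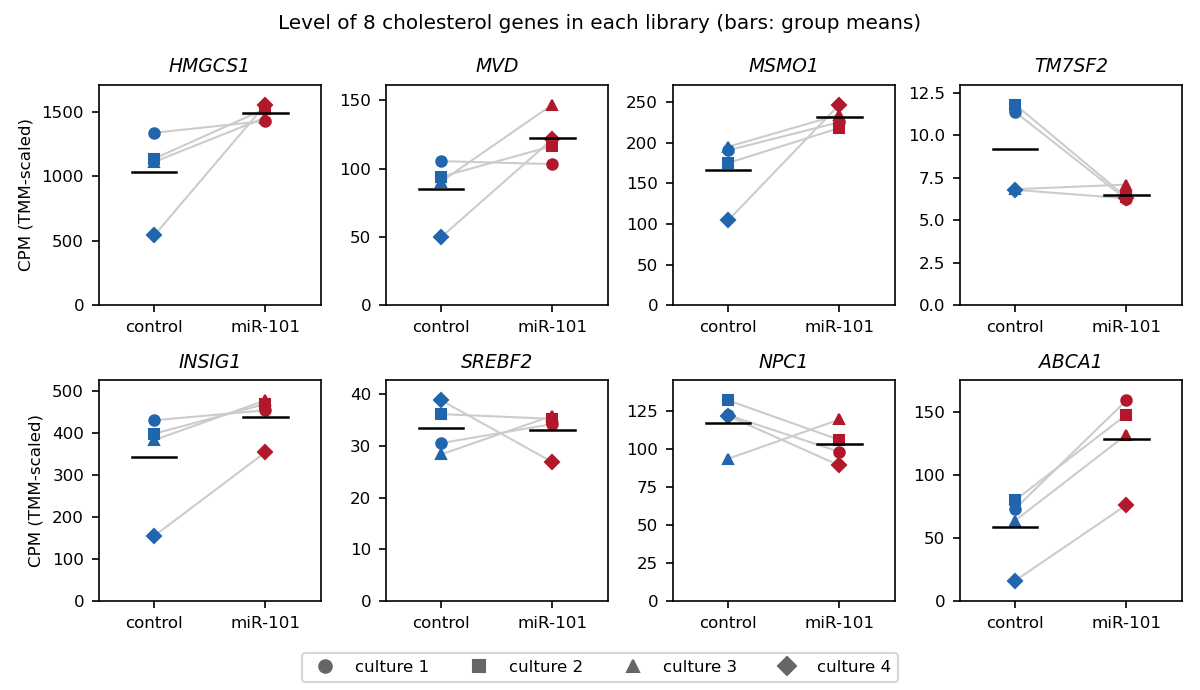
Level in CPM (linear axis from 0) of 8 of the genes in each library, with control in blue, miR-101 in red, grey lines joining same-numbered libraries, a symbol for each culture and a black bar at each group mean. The control library of culture 4 (diamond) is lowest for HMGCS1 (542.1 CPM), MVD, MSMO1, INSIG1 and ABCA1, but highest for SREBF2.

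The regulators of the pathway showed no common direction. SREBF2, the factor that mainly drives the sterol genes, stood at 34.2, 35.2, 35.8 and 26.9 CPM with the mimic and at 30.5, 36.2, 28.4 and 38.8 CPM in the control. The libraries of both groups were mixed, and the log2 fold change was -0.019 ± 0.137, with a 95% interval from -0.32 to 0.28. SREBF1, whose products also drive fatty acid genes, had -0.0022 ± 0.171 (95% interval -0.38 to 0.38). Without the control library of culture 4 SREBF2 had 0.060 and SREBF1 -0.10. The sign of SREBF1 turned with 2 of the 3 other scalings and that of SREBF2 with upper-quartile scaling. SCAP, the escort of SREBP, stood at 36.2, 34.7, 34.7 and 28.3 CPM with the mimic and at 41.9, 43.6, 30.1 and 61.8 CPM in the control. The groups overlapped through the control library of culture 3, and the control of culture 4 was the highest of all. Its log2 fold change was -0.41 ± 0.189 (edgeR adjusted p = 0.238), and -0.20 without that library. INSIG1 stood at 453.3, 468.3, 477.0 and 353.7 CPM with the mimic and at 429.6, 397.7, 382.6 and 154.8 CPM in the control. Each mimic library exceeded its own control, but that of culture 4 lay below the controls of the other cultures. The log2 fold change of INSIG1 was 0.36 ± 0.261, and 0.12 without the control library of culture 4, and that of INSIG2 was 0.23 ± 0.303, and -0.0378 without it.

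Of the genes of transport and storage other than ABCA1, none was called either. STARD4, which carries sterol to the endoplasmic reticulum, stood at 197.7, 190.8, 213.6 and 175.9 CPM with the mimic and at 171.2, 145.8, 191.5 and 69.0 CPM in the control. It was higher in each culture, the mimic libraries of cultures 2 and 4 lay below the control of culture 3, and the log2 fold change was 0.43 ± 0.248 (edgeR adjusted p = 0.339), and 0.20 without the control library of culture 4. NPC1, the membrane protein that passes cholesterol out of lysosomes, stood at 97.9, 105.7, 119.2 and 88.9 CPM with the mimic and at 122.0, 131.7, 93.4 and 121.6 CPM in the control. It was lower in cultures 1, 2 and 4 and higher in culture 3, with a log2 fold change of -0.19 ± 0.131. Its soluble partner NPC2 had 0.013 ± 0.147, and -0.10 without that control library. SOAT1, which holds the strongest seed match of the members, was slightly lower in all 4 cultures, with log2 ratios between -0.17 and -0.0046 and a log2 fold change of -0.091 ± 0.102 (95% interval -0.32 to 0.13), and -0.0385 without the control library of culture 4.

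The differences between the groups were not alike across cultures. Summed over the 18 enzymes of synthesis, the level was 3694, 3896, 4072 and 4186 CPM in miR-101 cultures 1 to 4 and 3755, 3374, 3466 and 1983 CPM in control cultures 1 to 4. The mimic libraries stayed within a narrow range, 3 of the controls lay just below or within it, and the control of culture 4 lay far below. The ratio was above 1 for 4 of 18 enzymes in culture 1, 14 in culture 2, 15 in culture 3 and 15 in culture 4, with median log2 ratios of -0.091, 0.094, 0.23 and 0.69, while the medians over all genes were between 0.002 and 0.0083. Cultures 1 and 2 alone gave 9 calls among the members by edgeR (32.4% of all genes were called there): HMGCS1, MSMO1, STARD4 and ABCA1 higher, and TM7SF2, EBP, DHCR7, SCAP and NPC1 lower. Libraries 1 and 2 lay close together in each group (SD 0.14 and 0.15). The p-values of that fit therefore do not measure the spread over all cultures. Cultures 3 and 4 alone gave no call among the members (0.0379% of all genes), as did the fit with the counts of cultures 1 and 2 summed (1.09%). The median over members was -0.02 in cultures 1 and 2 and 0.34 in cultures 3 and 4. Whether the response differs between these cultures was not tested.

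**Figure D4:**
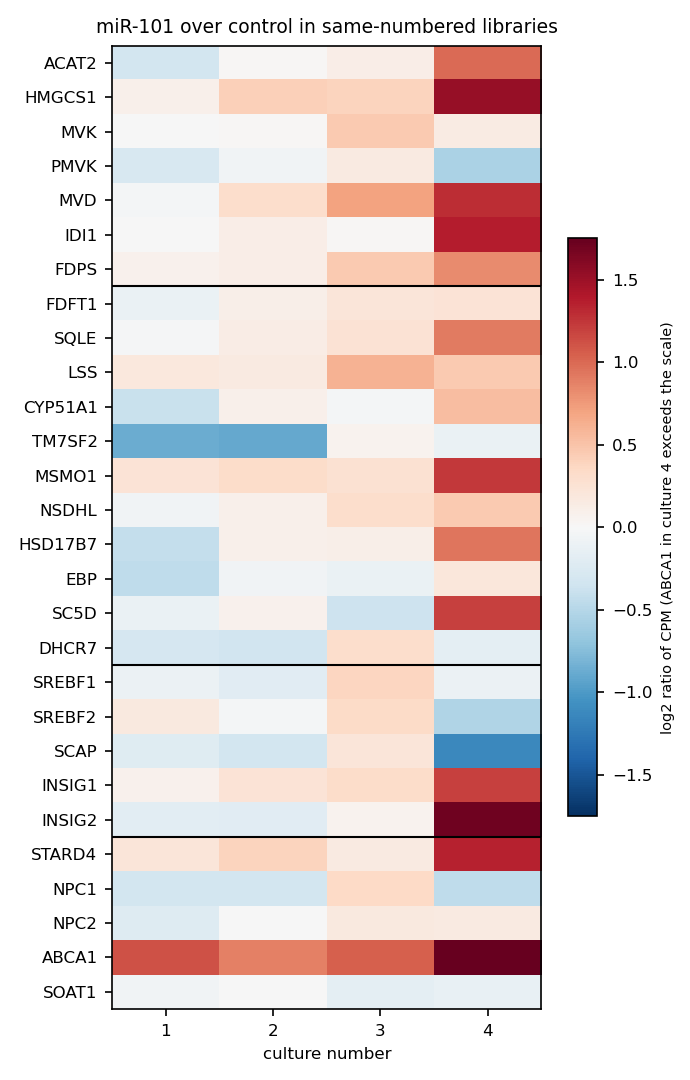
Log2 ratio of CPM, miR-101 over control, in each same-numbered pair of libraries (columns) for the 28 genes (rows, with black lines between the role groups); red is higher and blue lower with the mimic. ABCA1 is red in all 4 columns, TM7SF2 is blue in cultures 1 and 2, and the deepest colours of most enzymes are in culture 4.

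The control library of culture 4 was the lowest of the 4 controls for 15 of the 18 synthesis enzymes (83.3%) and for 21 of the 28 members (75%), beside 32.9% of all genes. Its level relative to the mean of the other controls had a median log2 value of -0.73 over the enzymes and -0.0072 over all genes. The genes for which it was highest were MVK, SREBF2, SCAP and SOAT1 (14.3% of the members, beside 34.3% of all genes). The median coefficient of variation of the enzymes was 26.3% in the control and 11.7% with the mimic, and 11.0% in the control without that library, while over all genes these values were 18.0%, 13.3% and 13.5%. This library held 19644320 counts, inside the range of the others, and its marker sums were 1378 CPM for the mesenchymal list (other controls 1615 to 1947), 364.1 for the epithelial (264.1 to 386.6), 1.27 for the blood cell (1.25 to 3.66) and 3.31 for the endothelial (3.92 to 10.5). Their part in the result was not tested.

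Further genes of sterol and lipid handling were followed in 6 lists, of which 69 genes were tested, and 1 rose and 1 fell (2.9%, beside 6.62% of all genes). The gene that fell was ICMT (chromosome 1, 6221193 to 6235972), the methyltransferase that finishes the farnesyl-dependent modification of proteins such as RAS. It stood at 171.0, 185.1, 182.6 and 206.7 CPM with the mimic and at 308.8, 319.7, 270.2 and 346.2 CPM in the control. The groups were well apart, the log2 fold change was -0.74 ± 0.108 (edgeR adjusted p = 0.00347), and leaving out any 1 of the 8 libraries kept the call. With cultures 1 and 2 summed the edgeR adjusted p was 0.0588. The 3' UTR of ICMT holds 2 seed matches, of which the 8mer is shown above, and RNF207 overlaps the locus on the other strand. The gene that rose was VAPA, an anchor of the endoplasmic reticulum for sterol transfer proteins, with a log2 fold change of 0.40 ± 0.103 (edgeR adjusted p = 0.0421). That call was lost without any 1 of the 4 miR-101 libraries or without the control library of culture 1 or 2, where the edgeR adjusted p reached 0.132. Over these lists the replicate block gave 4 higher (VAPA, CH25H, LIPA and NUS1) and 2 lower (ICMT and ACLY), beside 10.5% of all genes. Without the control library of culture 4 there were 2 higher (VAPA and CH25H) and 4 lower (ICMT, ACLY, OSBPL10 and GRAMD1C), beside 8.91% of all genes. Each fit thus called 6 of the 69 genes, a share no larger than that of all genes. With cultures 1 and 2 summed no gene of the 6 lists was called, beside 1.09% of all genes, and the edgeR adjusted p of VAPA was 0.235.

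By role, none of 9 tested genes of SREBP cleavage and sterol-regulated degradation, 7 lipoprotein receptors and lysosomal genes, 10 genes of LXR signalling, export and ester release and 16 fatty acid genes under SREBP control was called by edgeR. Among them the gene called higher by DESeq2, and also by limma-voom, was CH25H. At an unadjusted p under 0.05 these 4 lists together had 2 higher and 4 lower. The medians were -0.051, 0.19, -0.19 and 0.11. Of 16 sterol transfer genes 1 was called, VAPA, with a median of -0.081, and of 11 genes of the isoprenoid branches 1, ICMT, with a median of -0.055. The fatty acid genes shared the pattern of the control library of culture 4, which was the lowest control for 15 of 16 (93.8%). It was also lowest for 85.7% of the lipoprotein receptors and lysosomal genes and 60% of the LXR list. For sterol transfer the share was 50%, for SREBP cleavage and degradation 33.3% and for the isoprenoid branches 27.3%, beside 32.9% of all genes.

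Promoters of 25 members were found in RefSeq (GRCh38.p14), from 250 bases before to 50 bases after the gene start. The letters TCACNCCAC of the sterol response element, searched on both strands, were found in 1 of the 25 (4%), that of SREBF2, beside 1.39% of 27305 genes. That stretch starts 133 bases before the gene start and is shown in capitals because it is the 1 match, in the gene of the pathway's own factor.
SREBF2, chr22:41832963-41832990, plus strand: gacgcgccaTCACCCCACgcaccgcttc
With the looser letters TCACNCNAC, which include the first motif, FDPS and HSD17B7 were added (12%, beside 3.13%). The letters CCAAT, bound by the factor NF-Y that works beside SREBP, were found on 1 or the other strand in 18 of the 25 (72%). The share was 39.7% of the same 27305 genes. Those are all genes with a promoter entry, whether or not they were tested here, while all 25 members were tested. HMGCS1, MVD, MSMO1, INSIG1 and STARD4, with positive log2 fold changes, were among the 18. So were TM7SF2, EBP, DHCR7, SREBF2 and SOAT1, with negative ones, and ABCA1 was not.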

How the data were processed

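Total RNA from 8 cultures (4 per group) was made into Ribo-zero Gold libraries, per the labels. The authors deposited raw read counts for each gene symbol. The submitters' processing notes name the hg38 genome, StringTie 1.2.4, TopHat2 2.0.14 and bcl2fastq 2.18.0.12. The counter, its annotation and its strand setting were not given in the sources used here. The table holds almost no gene without reads. Genes were fitted with edgeR 4.0.16 in R 4.3.3 (filterByExpr, TMM factors, glmQLFit, glmQLFTest, group as the only term) and adjusted by Benjamini-Hochberg over 15905 genes; a call is an adjusted p under 0.05. CPM are counts scaled to TMM-adjusted library sizes, except those of the cell type markers, which are scaled to total counts without TMM factors. Alternatives were DESeq2 1.42.0, limma-voom (limma 3.58.1), other scalings, filters and dispersions, a replicate block, each library left out, and cultures 1 and 2 or 3 and 4 alone. Same-numbered libraries deviated together from their group means, with correlations over genes of 0.40, 0.57, 0.21 and 0.20, each over 0.1, so the numbers were taken to pair the libraries. That pairing comes from the data and not from the labels. Some differently numbered libraries also passed 0.1, so this rule cannot establish that each number marks a pair. Differently numbered libraries correlated from -0.57 to 0.49, and 2 of the 4 miR-101 libraries correlated more with another control than with their own: library 1 with control 2 (0.49) and library 4 with control 3 (0.46). The labels call the transfections independent; p-values measure the spread between these cultures of 1 line. All 28 members are named, and of the other lists each called gene. CH25H, LIPA, NUS1, ACLY, OSBPL10 and GRAMD1C fall outside that rule and were named after their values were seen. A gene of these lists that another tool called is not reported here. The members and lists were chosen with earlier results of these data known. The edgeR script was tested on simulated data. Seed matches come from GENCODE 29 transcripts.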

Additional observations from a re-analysis of the deposited data

Results flagged for a closer look

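In each group of 4 libraries the highest and lowest CPM of the 28 genes were checked for a gap to the nearest library above Dixon's 95% critical value, over 56 groups; chance gives about 1 in 20 such groups. There were 4. FDFT1 in control library 4 (189.0 CPM, others 218.4 to 222.9) and CYP51A1 in control library 4 (15.3 CPM against 20.5, 21.1 and 20.2) were below the other controls. PMVK in control library 3 was low (5.90 CPM, others 9.37 to 10.1), and TM7SF2 in miR-101 library 3 was high (7.10 CPM, others 6.22 to 6.35). No cause was tested.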

How the results depend on the processing

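Over all genes the counts higher and lower were 525 and 528, and 883 and 793 with the replicate block, 838 and 868 by DESeq2, 2534 and 2592 in cultures 1 and 2 alone, 6 and 0 in cultures 3 and 4 alone and 106 and 67 with cultures 1 and 2 summed. In the fits that left out 1 library they ran from 258 to 670 higher and from 227 to 749 lower. Members called numbered 0, except 1 higher (ABCA1) with the replicate block, 0 to 1 higher among the fits that left out 1 library (ABCA1 without control replicate 4) and 4 higher and 5 lower in cultures 1 and 2 alone. Pairing by block changed the call of no other member. The median of the members ran from 0.018 to 0.22 with 1 library left out. Of the 28 members, 12 changed the sign of a log2 fold change in some setting. SREBF1 was 0.0019 with the filter of 1 CPM, 0.0011 with total counts, 0.025 with upper-quartile factors, 0.051 with cultures 1 and 2 summed and 0.18 in cultures 3 and 4 alone. SREBF2 was 0.0046 with upper-quartile factors. In cultures 1 and 2 alone ACAT2 was -0.16, MVK -0.0011, FDFT1 -0.0084, CYP51A1 -0.13, HSD17B7 -0.17, SC5D -0.033, SREBF2 0.052, INSIG2 -0.20 and NPC2 -0.13, and in cultures 3 and 4 alone EBP was 0.044 and DHCR7 0.090. With 1 library left out the values ran from -0.0245 to 0.27 for ACAT2, -0.0385 to 0.16 for CYP51A1, -0.12 to 0.26 for HSD17B7, -0.0388 to 0.34 for SC5D, -0.11 to 0.11 for SREBF1, -0.095 to 0.061 for SREBF2, -0.0378 to 0.41 for INSIG2 and -0.10 to 0.11 for NPC2. The causes were not tested. PMVK, LSS and TM7SF2 had the lowest mean CPM of the members, and fits on 2 libraries a group have few residual degrees of freedom. The p-values of the fit on cultures 1 and 2 measure only the small spread between those libraries in each group.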

Other observations

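Of the genes newly called with the replicate block NUS1 was higher and ACLY lower, with log2 fold changes of 0.48 and -0.54 without the block. Given after their values were seen, as genes called with the replicate block, are 2 further genes of sterol handling, both higher with the mimic. CH25H, which makes the sterol signal 25-hydroxycholesterol, stood at 3.92, 4.55, 3.18 and 3.79 CPM in miR-101 cultures 1 to 4 and at 2.36, 1.83, 0.745 and 0.287 CPM in control cultures 1 to 4. The groups did not overlap, and the log2 fold change was 1.56 ± 0.442 (edgeR adjusted p = 0.0619, and 0.0301 with the replicate block). LIPA, the lysosomal lipase that frees cholesterol from its esters, stood at 326.9, 357.2, 334.9 and 259.2 CPM with the mimic and at 275.0, 229.9, 229.2 and 85.6 CPM in the control. It was higher in 4 of 4 cultures, the groups overlapped, and the log2 fold change was 0.64 ± 0.283 (edgeR adjusted p = 0.213, and 0.0488 with the replicate block). Without the control library of culture 4 the edgeR adjusted p was 0.0379 for CH25H and 0.095 for LIPA. Neither gene was called with cultures 1 and 2 summed.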
